A study of Homo sapiens with 4 samples.

Results

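The glucocorticoid receptor (GR) half-sites described here are those in which at least 1 sequencing read of the cytosine was methylated. They were taken from the anti-Flag library of GR, at any distance from a transcription start site (TSS), and numbered 249 of 8107 distinct half-sites (3.07%). By the methylation level, the percent of reads of a cytosine that were methylated, 127 of them lay below 50%, 67 from 50 to under 100%, and 55 at 100%. The other 7858 half-sites had no methylated read and served as the comparison. The members and their classes were chosen by the methylated and total reads, so their levels are given as a description and without a test.

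The data come from BisChIP-seq, in which DNA bound by a protein is immunoprecipitated, treated with bisulfite and sequenced, so that unmethylated cytosines are read as thymine. Reads that kept the cytosine were counted as methylated. No conversion rate is given in the sources used here, and unconverted unmethylated cytosines were not told apart from methylated ones. HEK-293T cells, a human embryonic kidney line, carried GR-pCMV14, a vector for Flag-tagged GR, and DNMT3A-pLX304, a vector for the methyltransferase DNMT3A, and received 4 nM dexamethasone, a GR ligand, for 24 h. The cells of both GR libraries were the same in these respects, and only the antibody differed: anti-Flag in the first, non-specific IgG in its control. Each was 1 library of 2 merged sequencing runs, so no value has a replicate error and all tests below were run over sites of these libraries. BMAL1-CLOCK libraries of the series were not used here.

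GR is a nuclear receptor that enters the nucleus on binding a glucocorticoid and binds DNA as a dimer, each partner holding 1 hexamer of the GR response element (GRE), with 3 bases between the hexamers. The hexamer has 1 cytosine on each strand, and neither is followed by a guanine. Methylation at such non-CpG cytosines is laid down chiefly by the DNMT3 enzymes and is known from embryonic stem cells and neurons, while most somatic cells have little of it. The measured cytosine is the fifth base of the motif, shown in capitals, read 5′ to 3′ on the strand it belongs to.

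First motif: agaaCa

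Its complement: tgttCt

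As the motifs are complementary, a hexamer can be listed on both strands, its cytosines 3 bp apart. Coordinates are those of hg18, and the tables hold no bases beyond the hexamer. The members comprised 44 of 1149 AGAACA sites (3.83%) and 205 of 6958 TGTTCT sites (2.95%). A level of 50% or above was found at 1.50% of all half-sites, 1.22% of AGAACA and 1.55% of TGTTCT sites, and a level of 100% at 0.678, 0.609 and 0.690%. AGAACA made up 17.7% of the members and 14.1% of the sites with no methylated read, a difference that did not pass (two-sided Fisher's exact test, p = 0.116). Adjusted p-values here are Benjamini-Hochberg values over 12 comparisons, 2 of which, on the motif and on listing of both strands, were added later. The members lay on the plus strand in 125 cases and on the minus strand in 124.

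The 2 libraries held methylated reads at different rates. In the anti-Flag library the sites held 51518 reads and in the IgG control 14143, with a median of 4 reads per site in each. In the IgG control 749 of 2715 sites (27.6%) had a methylated read, against 249 of 8107 (3.07%) in the anti-Flag library. As this measure chose the members and each side is 1 library, its test result is not read here, though it counts among the 12 comparisons adjusted together. The control listed 2100 AGAACA and 615 TGTTCT sites, where the anti-Flag library listed mostly TGTTCT. Within the motifs the control shares were 29.7 and 20.5%. A level of 50% or above was reached by 2.17% of control sites (2.19% of AGAACA, 2.11% of TGTTCT) and a level of 100% by 0.147% (0.0952 and 0.325%), so that full methylation was 4 of 2715 there and 55 of 8107 in the anti-Flag library. With both motifs pooled, the form of the signal also differed at sites with exactly 4 reads, where both libraries have the same possible levels. In the anti-Flag library 70 of 6445 such sites had 1 methylated read (1.09%, exact 95% interval 0.848 to 1.37%), 31 had 2, 9 had 3, and 18 had 4 (0.279%, interval 0.166 to 0.441%). The number of sites thus rose again from 3 to 4 methylated reads, with 7 and 16 sites at TGTTCT but 2 and 2 at AGAACA. The pooled interval at 3, 0.0639 to 0.265%, overlapped that at 4, and the rise was not tested. In the IgG control 454 of 2087 had 1 methylated read (21.8%), 43 had 2, 8 had 3, and 1 had 4 (0.0479%, interval 0.00121 to 0.267%). As the libraries differ in motif, the motifs are also given apart. At TGTTCT 0.962% of anti-Flag and 15.0% of control sites had 1 methylated read, and 0.290 and 0.203% had 4. At AGAACA the shares were 1.82 and 23.8% with 1, and 2 of 936 and 0 of 1595 sites had 4. At 4 methylated reads the intervals of the libraries overlapped, pooled and within each motif. The intervals cover counting error only, as no molecular identifiers are described for the reads.

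**Figure D1:**
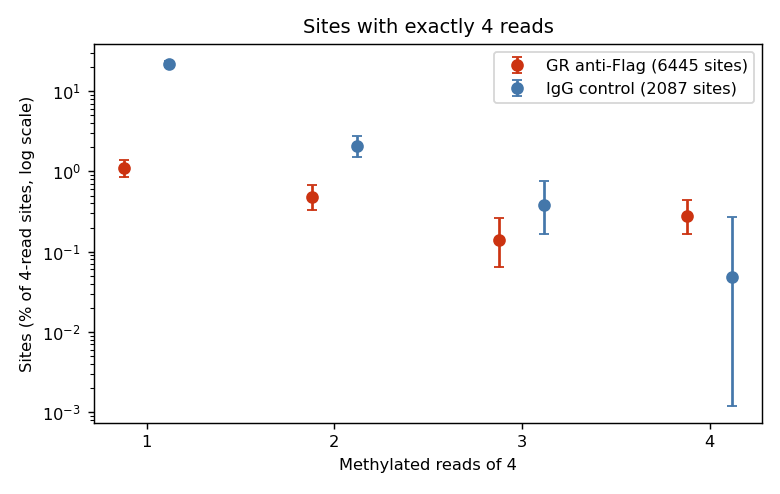
Share of the sites with exactly 4 reads (percent, log scale) that had 1, 2, 3 or 4 methylated reads, in the GR anti-Flag library and its IgG control, with exact 95% binomial intervals as bars. Both motifs are pooled. The IgG control falls from 21.8% at 1 methylated read to 0.0479% at 4, while the GR library goes from 1.09% to 0.279%. Its lowest share is at 3, where the interval overlaps that at 4.

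Among members with 10 or more reads, low and high levels stood apart. There were 43 such members, 22 at levels of 0.201 to 35.1% and 21 at levels of 66.7% or more, with none between. Of the 21, 19 were at 90% or above, and together they had 451 of 465 reads methylated. With fewer reads levels between these were found too, among them the 31 sites with 2 of 4 reads. A split at 10 or more reads was not particular to the anti-Flag library. Of 46 such IgG control sites 35 had a methylated read but a level below 50%. In the control 0 lay from 50 to under 100%, and 3 were at 100% (6.52%, exact interval 1.37 to 17.9%). The anti-Flag share at 100%, 11 of 76 (14.5%, interval 7.45 to 24.4%), overlapped it. Of all members 128 (51.4%) had exactly 4 reads, against 6317 of the unmethylated sites (80.4%), and 10 or more reads were held by 17.3% of members and 0.420% of unmethylated sites. Depth and membership are tied by the rule, as any methylated read makes a member. Of the members at 50% or above, 21 of 122 held 10 or more reads (17.2%). Exactly 1 methylated read had made 104 of the 249 sites members.

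At the thresholds the members were close to their neighbours outside. The unmethylated site with the most reads was mitochondrial, with 0 of 216 reads, which allows a level of up to 1.39%, and the lowest member level was 1 of 498 reads at DNMT3A. Just below 50% were 4 sites with 2 of 5 reads, nearest RYR2, AX747950, MAN2B1 and LXN, and just inside were 31 sites with 2 of 4 reads. The highest level under 100% was 98.7% at FN1, and 18 of the sites at 100% had only 4 reads.

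**Figure D2:**
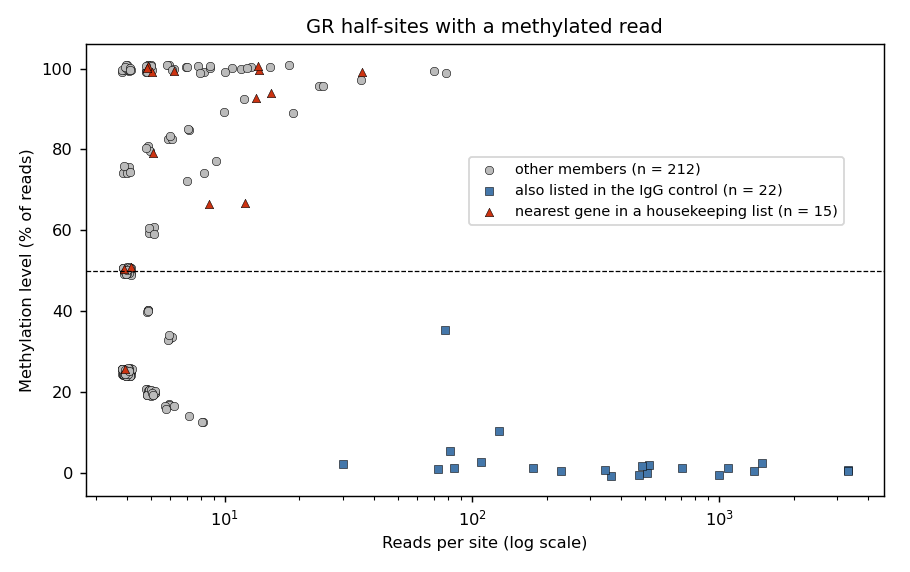
Methylation level (percent of reads) against reads per site (log scale) for the 249 members, with points shifted slightly at random on both axes to show overlaps, which sets some just below 0 or above 100%. Squares are the 22 members that the IgG control also listed, all with 31 or more reads and at most 35.1%, triangles are the 15 members nearest a gene of the housekeeping lists, and the dashed line marks 50%.

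Fully methylated sites with 10 or more reads lay at 11 nearest genes. The hexamer nearest FN1, the gene of the matrix protein fibronectin, held the most reads of the highly methylated sites, and its 2 cytosines, at positions 215934303 and 215934306 of chromosome 2, had 67 of 67 and 75 of 76 reads methylated. A site on chromosome 9 that the tables assigned to EEF1A1, the elongation factor that brings aminoacyl-tRNA to the ribosome, had 36 of 36. RefSeq (GRCh38.p14) places EEF1A1 on chromosome 6 and its pseudogene EEF1A1P5 on chromosome 9, so the copy these reads came from is uncertain. A site whose nearest TSS, that of TLR4, was 378694 bp away had 18 of 18 reads methylated. The site nearest USP36, a deubiquitinase of the nucleolus, had 15 of 15, at 12431 bp, and that nearest CD81, a tetraspanin of the cell surface, had 14 of 14, at 426 bp. ACTG1, the gene of cytoplasmic gamma-actin, had 14 of 14 at one of its sites. MAP3K13, a protein kinase gene, had 13 of 13, and MGC87042 and ZMYM4 had 12 of 12 each. C14orf177, whose TSS was 261579 bp from its site, had 11 of 11, and ALS2CR17, now named NBEAL1, had 10 of 10.

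Sites from 50 to under 100% at the same depth were mostly short of full methylation by 1 read. The site nearest CR624999 had 35 of 36 reads methylated. Those nearest MAN2B1, a lysosomal mannosidase, and SMOC1, a secreted calcium-binding protein, had 24 of 25 each. GAPDH, a glycolytic enzyme gene, had 14 of 15, the second ACTG1 site 13 of 14, BNIP2 11 of 12 and LRRC58 9 of 10. More than 1 read was unmethylated at CTSK, the gene of the protease cathepsin K, with 16 of 18, and at PCBP1, an RNA-binding protein gene, with 8 of 12. None of these 21 deep sites lay in a repeat.

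Below 50%, all 22 members with 10 or more reads were also listed in the IgG control, and none of the 105 with fewer reads was. Of the unmethylated sites with 10 or more reads the control listed 23 of 33. The 22 comprised 12 mitochondrial positions, 2 sites each at NR3C1 and DNMT3A, the genes that the vectors carried, 3 nearest GUSBL2, 2 nearest FLJ43980 and 1 nearest GGT8P. At NR3C1, the gene of GR, the cytosines had 9 of 3324 and 7 of 3393 reads methylated, and in the IgG control 14 of 379 and 26 of 477. At DNMT3A 1 of 498 and 2 of 478 reads were methylated, against 0 of 10 and 1 of 13. The GUSBL2 sites had 1 methylated read each, of 171, 238 and 374, against 1 of 40, 4 of 101 and 6 of 99. Of the mitochondrial sites, 12 of 13 were members. Their levels ran from 0.293 to 35.1%, the highest with 27 of 77 reads against 1 of 10 in the IgG control. Gene names such as HN1 stand beside mitochondrial positions in the deposited tables and are not read as genes here. Over the 22 sites 1.12% of 16041 reads were methylated in the anti-Flag library and 5.87% of 2198 in the IgG control, and 18 sites had the higher level in the IgG control and 4 in the anti-Flag library.

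The remaining 105 members below 50% had 4 to 9 reads and levels of 12.5 to 40.0%, and 97 of them had exactly 1 methylated read. No member at 50% or above was listed in the IgG control, and the control had no site within 200 bp of any of these 122 (a share of up to 2.46% is allowed). It had a site within 200 bp of 80 unmethylated sites (1.02%). At 10 or more reads the control listed 0 of 21 members at 50% or above and 23 of 33 unmethylated sites. The highly methylated members could therefore not be compared with the control site by site. Where the control did list a site that was unmethylated in the anti-Flag library, which it did for 55, it had a methylated read at 19. Its own fully methylated sites numbered 4. The site nearest WDR74 had 32 of 32 reads methylated, at 44 bp from the TSS. SNORD17, a small nucleolar RNA gene, was nearest to 2, with 12 of 12 reads at 121 bp and 10 of 10 at 70 bp. The last, nearest the histone gene HIST1H1E, had 4 of 4 reads at 285 bp.

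Members lay in repeats less often than sites with no methylated read. Repeats are marked in the tables by lower-case letters, and a hexamer with any such letter was counted as lying in one. Of the sites with no methylated read 45.5% were in repeats, while of all members 56 were (22.5%, exact 95% interval 17.5 to 28.2%, two-sided Fisher's exact test, p = 1.09e-13, adjusted p = 4.37e-13). At 100% the share was 3 of 55 (5.45%, interval 1.14 to 15.1%, exact p = 6.67e-11, adjusted p = 1.60e-10), and from 50 to under 100% it was 7 of 67 (10.4%, exact p = 1.20e-09, adjusted p = 2.06e-09). Below 50% it was 46 of 127 (36.2%, exact p = 0.0387, adjusted p = 0.0423), and without mitochondrial and unplaced sequence this last difference did not pass (44 of 113, exact p = 0.216). The repeat members at 100% were 2 sites of MRPL34 and 1 assigned to TUBB2C on a haplotype sequence of chromosome 6. With sites of exactly 4 reads alone 25.8% of members and 45.2% of the others were in repeats (exact p = 8.89e-06). For AGAACA alone the difference did not pass (14 of 44 against 43.8%, exact p = 0.123), and for TGTTCT alone it did (20.5 against 45.8%, exact p = 1.15e-13). Unmethylated sites with 10 or more reads were mostly repeats, 27 of 33 (81.8%), against 0 of 21 highly methylated sites of that depth, which allows up to 14.3%.

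**Figure D3:**
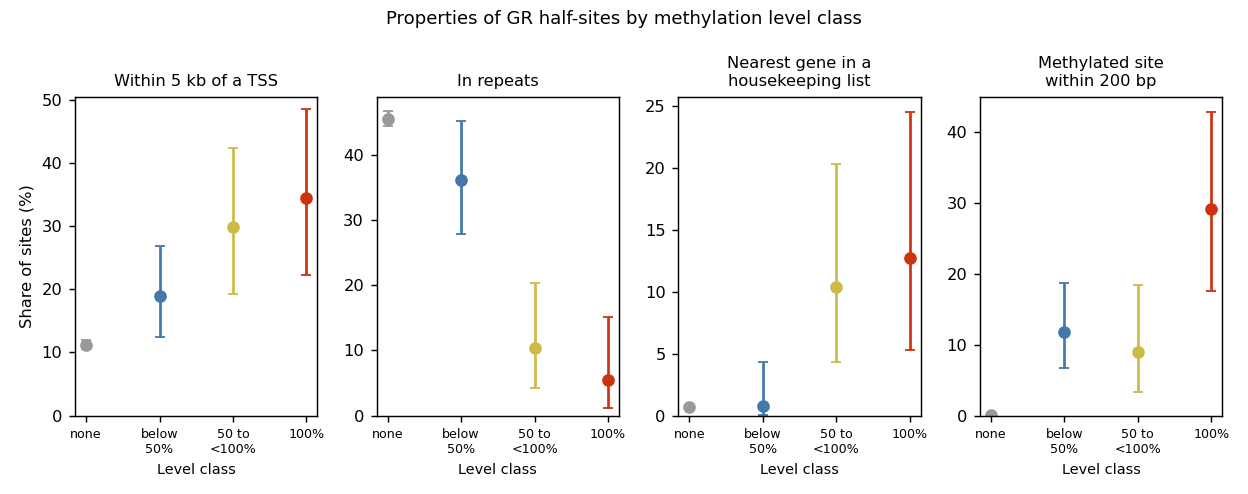
Share of sites (percent) within 5 kb of a TSS, in repeats, nearest a gene of the housekeeping lists, and with a methylated site within 200 bp, for sites with no methylated read and the 3 level classes. Points are shares and bars exact 95% binomial intervals. The repeat share goes from 45.5% with no methylated read to 5.45% at 100%, and the housekeeping share from 0.662 to 12.7%.

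Members also lay nearer to a TSS. The median distance was 10102 bp at 100%, 13494 bp from 50 to under 100%, 30169 bp below 50% and 43136 bp with no methylated read. Within 5 kb lay 19 of the 55 sites at 100% (34.5%, exact 95% interval 22.2 to 48.6%) and 20 of the 67 from 50 to under 100% (29.9%, interval 19.3 to 42.3%), against 876 of 7858 unmethylated sites (11.1%). Both differences passed over all depths (two-sided Fisher's exact test, adjusted p = 6.78e-06 and 4.04e-05). Below 50% the share was 24 of 127 (18.9%, exact p = 0.0102, adjusted p = 0.0122), but without mitochondrial and unplaced sequence it was 12 of 113 (10.6%), on the other side of the 11.1% of unmethylated sites (exact p = 1.00). Over all members it was 63 of 249 (25.3%, exact p = 9.88e-10, adjusted p = 1.98e-09). Without mitochondrial and unplaced sequence it was 50 of 234 (21.4%, exact p = 8.66e-06). Depth bears on this result. With exactly 4 reads the shares were 15.6 and 11.0% (exact p = 0.116), of which the sites at 100% had 5 of 18 (27.8%, exact p = 0.0410) and those from 50 to under 100% had 8 of 40 (exact p = 0.0770). With at least 8 reads the difference passed in neither class, with 5 of 16 sites at 100% (31.2%, exact p = 0.310) and 6 of 13 from 50 to under 100% (46.2%, exact p = 0.0650) against 18.6% of unmethylated sites. For AGAACA alone the difference did not pass (9 of 44 against 13.3%, exact p = 0.178). Farther than 100 kb from a TSS lay 9.02% of the members at 50% or above and 30.5% of unmethylated sites. The 4 fully methylated sites of the IgG control also lay near a TSS, all within 285 bp.

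**Figure D4:**
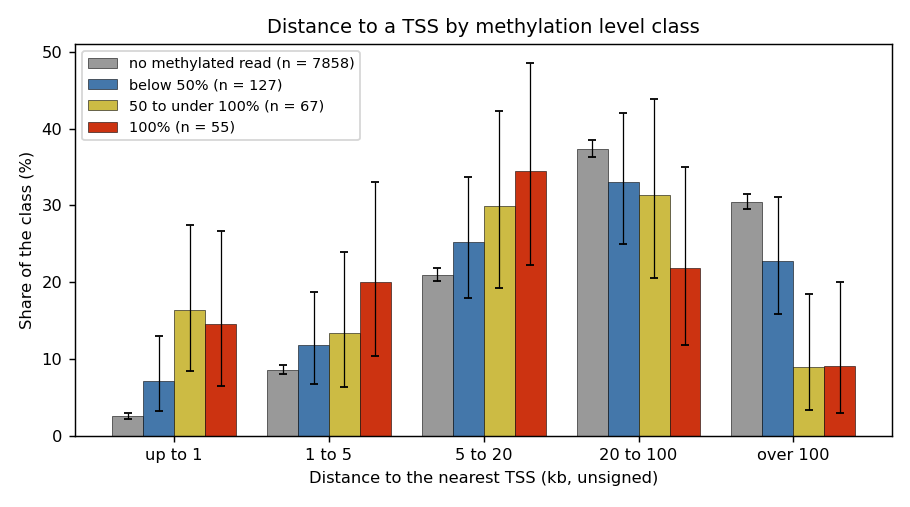
Share of each class (percent) by distance to the nearest TSS in kb, which the tables give without a sign, with exact 95% binomial intervals. Up to 1 kb lie 14.5% of sites at 100% and 2.55% of sites with no methylated read, and over 100 kb 9.09 and 30.5%.

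The highly methylated members nearest to a TSS had few reads in most cases. The nearest lay 48 bp away, at BC034684, with 7 of 9 reads methylated. It was followed by EEF1A1 on chromosome 6 at 63 bp (5 of 5 reads), CR613142 at 104 bp (4 of 4) and FAM127B at 158 bp (3 of 5). CR624999 at 238 bp had 8 of 8 reads. A site 257 bp from NME2P1, a pseudogene of the nucleotide kinase NME2, had 3 of 4, and SNORD21, a small nucleolar RNA gene, had 3 of 4 at 324 bp. The site at p18, 365 bp away, had 2 of 4, and GAPDH and CD81 came next at 384 and 426 bp.

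Genes of the housekeeping lists were nearest to 14 of the 122 members at 50% or above (11.5%, exact 95% interval 6.42 to 18.5%), to 1 of 127 below 50% (0.787%) and to 52 of 7858 unmethylated sites (0.662%, interval 0.495 to 0.867%). The lists hold chosen genes of protein synthesis, glycolysis, the cytoskeleton, RNA binding, histones, respiration and general upkeep. They were chosen with earlier results of these data known, so the shares are a description and not independent evidence. They are not complete (SF3B5, RBM39 and ETF1, whose sites were members, are in none), some of their genes are restricted to certain tissues, and no expression was measured here. Read the other way, 14 of the 67 sites nearest such genes were highly methylated (20.9%, interval 11.9 to 32.6%), where 1.50% of all half-sites were. Within 5 kb of a TSS these genes made up 13 of 39 highly methylated sites (33.3%) and 9 of 876 unmethylated ones (1.03%). The 14 sites belong to 11 genes, as EEF1A1, ACTG1 and PCBP1 have 2 each. Without those 3 genes 8 of 116 remained (6.90%). The 14 sites include the EEF1A1 site on chromosome 9 and the TUBB2C site, whose gene assignments are uncertain. With exactly 4 reads the shares were 2 of 58 (3.45%) and 43 of 6317 (0.681%).

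In protein synthesis, members were found at 1 of 12 sites nearest listed ribosomal protein genes (8.33%, exact 95% interval 0.211 to 38.5%, which holds the 3.07% of all half-sites) and at 3 of 7 nearest listed translation factor genes (42.9%, interval 9.90 to 81.6%). The lists below are as small and are read against the same 3.07%. RPL15, a protein of the large ribosomal subunit, had 4 of 5 reads methylated at 2583 bp from its TSS. EIF2A, an initiation factor, had 2 of 4 at 3760 bp. Of the glycolytic genes GAPDH alone, of 4 with a site, had a member. Of 5 cytoskeletal sites 3 were members, both of ACTG1, at 1546 and 1661 bp, and the TUBB2C site with 5 of 5 reads. RefSeq places TUBB2C, now named TUBB4B, on chromosome 9, so this assignment is uncertain too. Of 18 sites at the listed genes of RNA binding and splicing 4 were members (22.2%). PCBP1 had 6 of 9 reads methylated at 1249 bp beside the 8 of 12 at 1285 bp, HNRNPUL1 had 2 of 4, and ANP32A, a nuclear phosphoprotein gene, had 1 of 4, the only member below 50% at a gene of these lists. COX7A1, the cytochrome oxidase subunit of heart and muscle, had 5 of 5 at 2902 bp, the only member among 7 sites of nuclear respiratory genes. GNAS, the gene of a G protein alpha subunit, had 6 of 6 at 7774 bp. No histone site was a member (0 of 4 sites and 17 reads), and no site was listed for the chaperone and ubiquitin genes.

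Other gene groups held no member. The 60 sites nearest olfactory receptor genes had no methylated read among 264, and the 87 nearest ZNF-named zinc finger genes none among 372. At the zinc finger genes this allows a member share of up to 3.45%, and at the fewer olfactory receptor sites a higher one, so neither count sets the group below the 3.07% of all half-sites. Genes that glucocorticoids induce had 10 sites at 9 genes with no member, too few sites to set the group apart from the 3.07% of all half-sites.

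Members more often had a listed neighbour. Of the members 45 had another listed half-site within 200 bp (18.1%), against 450 unmethylated sites (5.73%, two-sided Fisher's exact test, p = 2.55e-11, adjusted p = 7.64e-11). The excess lay in the other strand of the same hexamer, which was listed for 26 members (10.4%) and 14 unmethylated sites (0.178%, exact p = 2.01e-30, adjusted p = 1.20e-29). Listing of both strands needs 4 or more reads on each, and depth is tied to membership by the rule. Neither this later test nor the test of any neighbour within 200 bp is therefore independent of how the members were chosen. Of the 26 members 16 were below 50%, all also listed in the IgG control, and 10 were at 50% or above. With only neighbours of another hexamer the shares were 8.43 and 5.60% and did not pass (exact p = 0.0690), and with exactly 4 reads any neighbour was found for 6.25 and 5.27% (exact p = 0.551). Neighbours can lie in the same read pairs, so they are not independent, and how their levels agree is given as a description. A methylated neighbour was found for 16 of 55 sites at 100%, 6 of 67 from 50 to under 100%, 15 of 127 below 50% and 8 of 7858 unmethylated sites (0.102%).

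Of 20 hexamers listed on both strands, 14 had a methylated read. In 5 of these both strands were at 83.3% or above, in 7 both were methylated below 50%, in 2 a low strand faced an unmethylated one, and in none did a highly methylated strand face a strand below 50%. Low strands could still be unlike, as in a mitochondrial hexamer with 1 of 84 and 27 of 77 reads methylated. Beside FN1, the fully or nearly fully methylated hexamers lay nearest MAP3K13 (13 of 13 and 9 of 9 reads), ALS2CR17 (10 of 10 and 9 of 9), BNIP2 (11 of 12 and 5 of 5) and BAIAP2L1 (5 of 6 and 5 of 5). The capitals mark the methylated cytosines, as G on the forward strand where the cytosine is on the minus strand. The hexamers at FN1 (chr2:215934302-215934307) and BNIP2 (chr15:57848252-57848257) show both orientations.

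FN1: aGaaCa

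BNIP2: tGttCt

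Different hexamers within 200 bp formed 258 pairs, of which 244 had no methylated read. In 6 of the 14 others both sites were at 66.7% or above, and in 2 a highly methylated site lay beside an unmethylated one, at NBPF1 (4 of 5 and 0 of 5 reads) and MELK (2 of 4 and 0 of 4). In 4 a member below 50% lay beside an unmethylated site, nearest FGGY, KRTAP4-12, KIAA1191 and BC018009, and in 2 both were mitochondrial and below 50%. The 6 concordant pairs lay at ACTG1, 115 bp apart, at LMOD3, 126 bp apart, with 4 of 4 reads each, at PCBP1, 36 bp apart, at CR620402, 33 bp apart, with 5 of 5 each, at SSR1 and at MRPL34. SSR1 is a subunit of the translocon-associated complex of the endoplasmic reticulum, with 5 of 5 reads at each cytosine, and MRPL34 a protein of the mitochondrial ribosome, with 4 of 4 at each. These pairs are the closest and are shown on the forward strand, with n for bases that the tables do not hold, at chr6:7284625-7284641 and chr19:17278399-17278416.

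SSR1: aGaacannnnntgttCt

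MRPL34: aGaacannnnnnaGaaca

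In SSR1 the hexamers face each other as in a GRE but stand 5 bases apart, and in MRPL34 they point the same way. Listed hexamers in the arrangement of a GRE, with 3 bases between, were found nearest SUG2, ABCA8 and PRKAG2. The PRKAG2 hexamers lay at chr7:151229587-151229601, with the measured cytosines in capitals.

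PRKAG2: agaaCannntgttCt

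None of these 3 had a methylated read, each with 0 of 8 reads over 2 cytosines. A GRE of which only 1 hexamer had 4 reads cannot be seen in these tables.

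**Figure D5:**
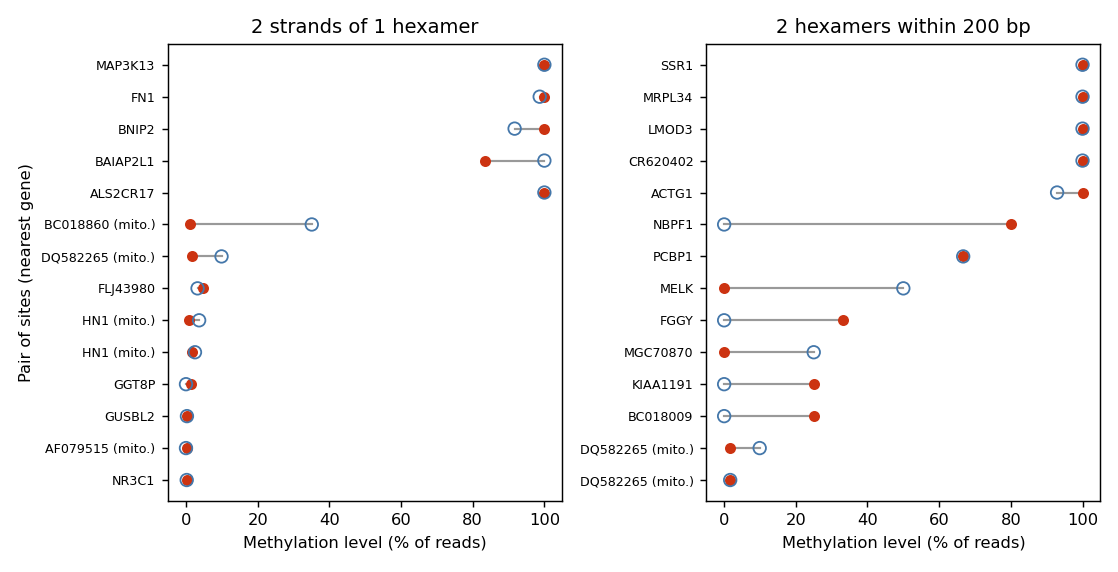
Methylation level (percent of reads) of both sites in each pair within 200 bp that holds a member, named by the nearest gene, with filled and open circles for the 2 sites. Among 14 hexamers read on both strands 5 are at 83.3% or above on each, and among 14 pairs of different hexamers 6 are at 66.7% or above on both sites.

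The members were spread over 221 nearest genes, of which 198 had 1 member, 20 had 2 and 3 had 3 or more. The last were GUSBL2 and the mitochondrial labels HN1 and DQ582265. Members at 50% or above were nearest to 108 genes.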

How the data were processed

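BisChIP-seq of 1 GR anti-Flag library and 1 IgG control was used. For each library the authors joined 2 sequencing runs, mapped them to hg18 by Bismark with overlapping mates counted once, took out PCR duplicates by SAMtools and listed only cytosines covered by 4 or more reads; no versions are given in the sources used here. Per cytosine, the deposited tables hold counts of methylated and of all reads, not normalized, and the unsigned distance in bp to the nearest TSS. Here 2419 duplicate entries of a site, equal in their counts, were removed, and the motif was taken from the table's name. Shares of sites have exact Clopper-Pearson 95% intervals and were compared by two-sided Fisher's exact test, which takes sites as independent although neighbours share read pairs. Limits for a share of 0 use 3 counts. The test and the neighbour search were checked on simulated data. Current gene names come from RefSeq, whose symbols and synonyms matched 185 of 249 members. Calculations ran in Python 3.11.15 (scipy 1.17.1, pandas 2.3.3).

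The members, gene lists and tests were chosen with earlier results of these data known. Named sites follow a rule: members at 50% or above with 10 or more reads, the 10 below 50% with the most reads, the 10 highly methylated nearest to a TSS, those in the gene lists or in the IgG control, genes with 3 or more members, and sites at the thresholds. The pairs of neighbours, GREs and fully methylated IgG sites were named after their values were seen. Alternatives changed depth, distance, window, motif and the sites left out. Added after the data were seen were those without sites of the IgG control, by class without mitochondrial and unplaced sequence, with 1 site per hexamer, with all 6 letters in lower case, with other hexamers at exactly 4 reads, and without EEF1A1, ACTG1 and PCBP1. No hg18 genome was used, so no bases beyond the hexamer are given.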

Additional observations from a re-analysis of the deposited data

How the results depend on the processing

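Of 82 alternatives 62 left a result on its side of the test or, for untested shares, within its interval, and the direction turned in 3. The 62 include all 5 alternatives of the comparison of the anti-Flag library with the IgG control, whose result is not read here. The differences below are members minus unmethylated sites in percentage points. For the share within 5 kb of a TSS (14.2), exactly 4 reads gave 4.62 and AGAACA alone 7.15, neither of which passed. Below 50% the same share (7.75) turned to -1.0 with exactly 4 reads, to -0.492 without mitochondrial and unplaced sequence and to -1.64 without sites of the IgG control. From 50 to under 100% (18.7) it no longer passed with exactly 4 reads (9.0) or at least 8 (27.6), and at 100% (23.4) with at least 8 (12.7). In repeats (-23.1) AGAACA alone gave -12.0. Below 50% (-9.33) the repeat difference did not pass with exactly 4 reads (-9.48), without mitochondrial and unplaced sequence (-6.18) or without IgG sites (-7.21). For neighbours (12.3), exactly 4 reads gave 0.979, other hexamers alone 2.83 and both together 1.01. Counting sites closer than 200 bp once leaves no neighbours and was not run there. Housekeeping shares moved from 6.02 to 20.6% of members within 5 kb and 2.34% with exactly 4 reads, from 11.5 to 33.3 and 3.45% at 50% or above, and from 0.662 to 1.03% within 5 kb for unmethylated sites. The cause of these shifts was not tested. No paired analysis was possible because each group had 1 library.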

Other observations

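A second site nearest MAN2B1, at position 12615695 of chromosome 19, had 2 of 5 reads methylated, where the first, at position 12615305, had 24 of 25.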
